A study of Saccharomyces cerevisiae with 36 samples.

Results

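The genes described here encode the subunits of the RNA polymerases I, II and III of the yeast Saccharomyces cerevisiae. They were chosen by name: an RPA, RPB or RPC symbol followed by a number, or RPO21, RPO26, RPO31 or RET1. This gave 31 genes of the 6295 open reading frames in the table, 5830 of which matched an annotated gene. By their place in the enzymes, 7 subunits belong to polymerase I only, 7 to polymerase II only and 10 to polymerase III only, 2 are shared by I and III, and 5 are shared by all enzymes. Polymerase I makes the large ribosomal RNA precursor, polymerase III makes transfer RNAs and other short RNAs including the smallest ribosomal RNA, and polymerase II makes messenger RNAs. The enzymes are built on a common plan, with a pair of large catalytic subunits, an assembly platform, a stalk and a set of small shared subunits. Growing yeast cells devote much of their transcription to ribosomes, and genes for ribosome production are known to be turned down together in many stresses.

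The study set transcript levels of cells in ethanol against those of the same strain before ethanol on 2-channel DNA microarrays, and set strains against each other without ethanol. Cultures were in log phase in rich YPD medium at 30 °C, and ethanol was added to 5% by volume. DBY8268 is the laboratory strain, of the S288c reference background, whereas M22 and YPS163 do not come from the laboratory. YPS163 MATa is YPS163 of mating type a. By their genotype labels hap1D and msn2D are mutants of YPS163 MATa, although the titles of the msn2D arrays leave out the mating type. Their names are read as lacking HAP1, a haem-responsive regulator, and MSN2, a regulator of the general stress response. Each of these 6 strains had 3 arrays at 30 min in ethanol, and DBY8268, M22 and YPS163 also had 1 array each at 15, 45 and 60 min. In log phase, M22 and YPS163 were each hybridised against DBY8268 and hap1D against its parent YPS163 MATa, with 3 arrays each. The series text calls the replicates biological triplicates, and the p-values below measure the spread between these arrays.

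The 36 arrays held 4981 to 6093 values each, with medians from -0.08 to 0.17, and their number limits the precision. Values are read as log2 ratios of ethanol over unstressed cells, or of M22, YPS163 or hap1D over its partner. The base comes from the range of the values, and the direction is likely rather than certain. Its basis is that genes far above 0 in ethanol were missing from 12.4% of their spots on log-phase arrays, compared with 1.1% for genes far below 0. Read the other way round, every ethanol value below would change sign. For M22 in log phase the basis is that genes far below 0 were missing from 28.0% of the spots on M22 ethanol arrays and from 0.4% on those of DBY8268, and for YPS163 from 27.6% and 1.3%. The deposited hap1D log-phase ratios were turned so that HAP1 is low in hap1D, at -3.47 ± 0.61 (SD, n = 2), so that its sign there is a choice and no check of the labels. HAP1 had no value on any hap1D ethanol array and MSN2 none on any msn2D ethanol array, while both had values on ethanol arrays 1 and 2 of YPS163 MATa. Array 3 of YPS163 MATa in ethanol correlated at 0.164 with the mean of its partners as deposited and at 0.747 when moved by 1 position in the table, so it was left out and this group counts as n = 2. On 21 of the arrays, among them all the 30 min ethanol arrays of DBY8268, M22 and YPS163, a run of neighbouring chromosome XV rows from YOL139C to YOR343C held at most 75 values, against at least 314 on the other 15. RPA190, RPA43, RPB2, RPO31, RET1, RPB8 and RPB10 lie in that run, and RPC11, on another chromosome, lacked values on 20 of the same arrays. These 8 genes therefore have no 30 min value in DBY8268, M22 and YPS163 and are described from the other strains, while 17 members had a value on all 36 arrays.

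In DBY8268, 30 min of ethanol lowered the transcripts of every measured polymerase I and III subunit, while most polymerase II subunits stayed near their starting level. Of 23 members tested, 19 fell (limma with Benjamini-Hochberg adjustment, adjusted p under 0.05) and 0 rose. Among all genes tested, 31.8% fell and 29.1% rose. The median log2 ratio was -2.27 for the 5 polymerase I subunits tested, -1.56 for 7 of polymerase III, -2.05 for the pair shared by I and III, -1.30 for 3 shared by all and -0.30 for 6 of polymerase II. The median of all genes tested was 0.02.

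RPA49, which with RPA34 forms a pair that resembles the polymerase II factor TFIIF, was the lowest polymerase I subunit in DBY8268. Its log2 ratios were -2.76, -2.46 and -2.79, a mean of -2.67 ± 0.18 (SD, n = 3, adjusted p = 5.03e-11). RPA135, the second largest and catalytic subunit, gave -2.66, -2.64 and -2.10, with a mean of -2.47 ± 0.32. All arrays of both genes lay below every polymerase II value of this strain, the lowest of which was -0.99. RPA34 averaged -2.27 ± 0.24, and RPA12, the small zinc-ribbon subunit that takes part in RNA cleavage, -2.23 ± 0.31. RPA14, a stalk subunit, was the least lowered at -1.21 ± 0.75 and the most variable, with arrays at -1.92, -1.27 and -0.43. RPA14 overlaps another annotated coding gene by its coordinates, and whether its spot also reads that gene was not checked. RPA190 and RPA43 had no values here on any of the 3 arrays.

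All 7 polymerase III subunits measured in DBY8268 fell. RPC82, part of the trimer that binds the initiation factors, was the lowest, with -2.12, -2.31 and -1.85 on the arrays and a mean of -2.09 ± 0.23 (adjusted p = 3.25e-10). Its partners in that trimer, RPC34 and RPC31, averaged -1.59 ± 0.31 and -1.52 ± 0.10. The stalk subunits RPC25 and RPC17 averaged -1.66 ± 0.21 and -1.49 ± 0.23. The TFIIF-like pair was unequal. RPC37 averaged -1.56 ± 0.18, whereas RPC53 gave -1.08, -1.09 and -0.81, a mean of -0.99 ± 0.16, so that their arrays did not overlap. RPO31, RET1 and RPC11 had no values on these 3 arrays.

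The subunits shared between enzymes followed the polymerase I and III pattern in DBY8268. RPC19, part of the assembly platform of polymerases I and III, gave -1.86 and -2.50 on the 2 arrays that measured it, and its partner RPC40 gave -2.04, -1.84 and -1.89, a mean of -1.92 ± 0.10 (adjusted p = 1.50e-10). RPC10, a small zinc-binding subunit of all enzymes, averaged -1.46 ± 0.30. RPO26, another core subunit common to all of them, averaged -1.30 ± 0.37. RPB5, which forms the jaw on the DNA side, gave -0.54, -1.05 and -1.61, a mean of -1.07 ± 0.54. The 9 values of RPC10, RPO26 and RPB5 were all below 0. RPB8 and RPB10 were not measured.

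Polymerase II subunits changed little in DBY8268. RPB3, the platform subunit that corresponds to RPC40, gave -0.28, -0.58 and -0.99, a mean of -0.62 ± 0.36 (adjusted p = 0.000384), and RPB9, the counterpart of RPA12, averaged -0.49 ± 0.22 (adjusted p = 0.0283). The call of RPB9 was lost without array 2 (adjusted p = 0.152) or array 3 (adjusted p = 0.108). The other 4 did not pass with all arrays, although RPO21 (adjusted p = 0.0401) and RPB7 (adjusted p = 0.0200) passed as lower without array 3. RPO21, the largest subunit, averaged -0.42 ± 0.38, RPB11 -0.19 ± 0.40 and RPB7 -0.13 ± 0.34. RPB4, which with RPB7 forms the stalk, lay at 0.85, 0.47 and 0.15, above 0 on all 3 arrays. With the array number as a block among the ethanol arrays of DBY8268, M22 and YPS163, RPO21 (adjusted p = 0.0183) and RPB4 (adjusted p = 0.00661) also passed in DBY8268, in opposite directions. RPB2 was not measured.

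**Figure D1:**
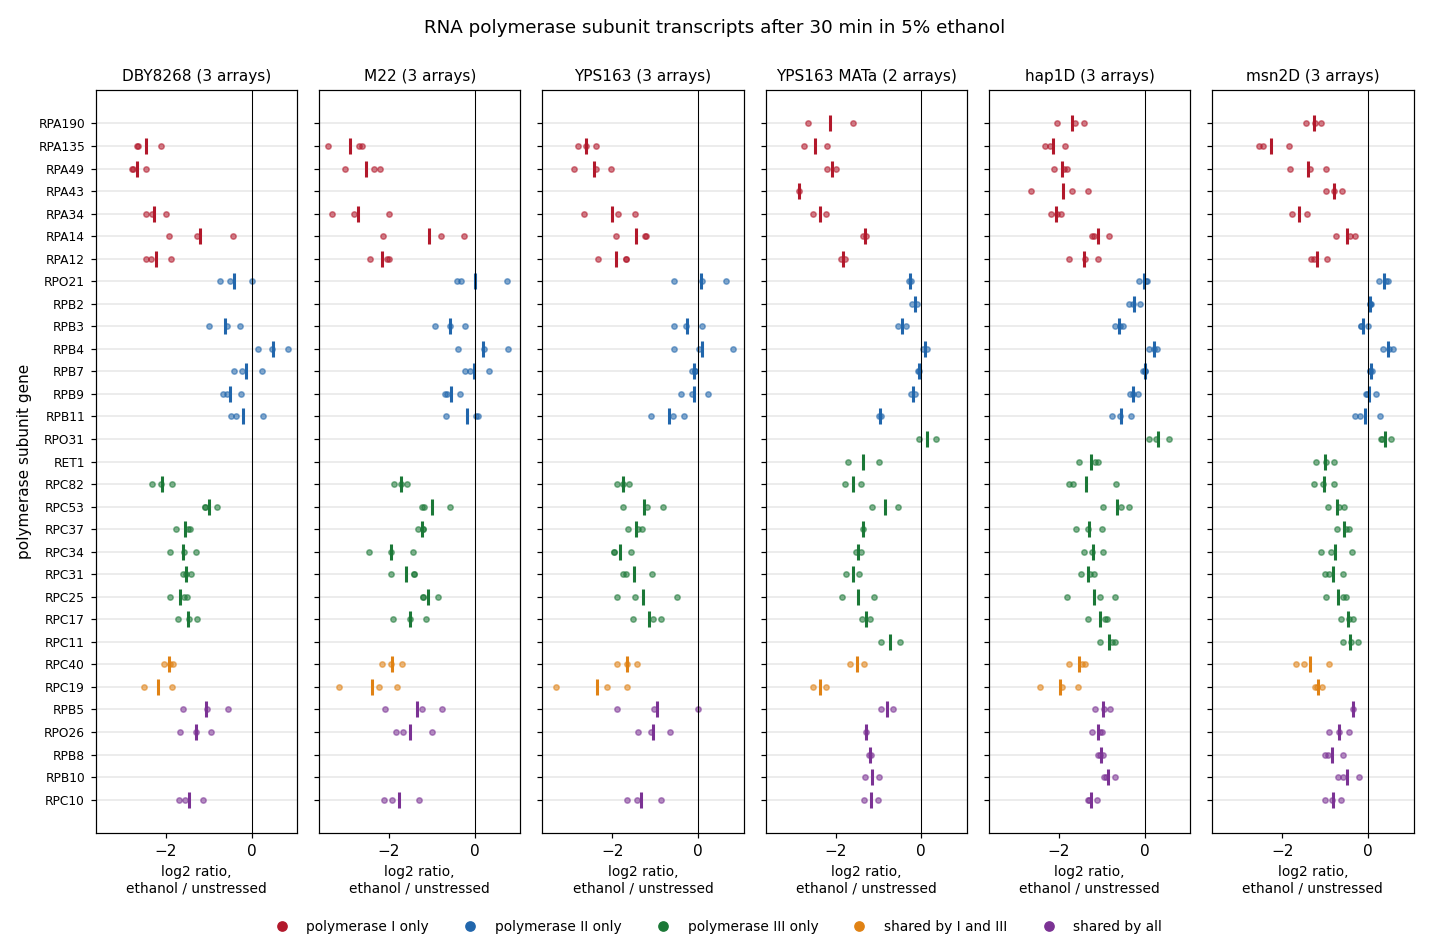
Log2 ratios of ethanol over unstressed cells for the 31 subunit genes at 30 min, 1 panel per strain. Dots are arrays and upright bars are means, coloured by enzyme; rows with no dots had no values. Polymerase I and III subunits lie to the left of 0 in every panel except RPO31, while polymerase II subunits lie around 0, and in msn2D the dots sit closer to 0.

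M22 and YPS163 gave the same order of enzymes at 30 min, with medians of -2.53 and -1.997 for polymerase I, -1.52 and -1.44 for polymerase III and -0.10 and -0.10 for polymerase II. These are medians of gene means. Taken within arrays 1, 2 and 3, the polymerase II median was -0.175, -0.28 and -0.53 in M22. In YPS163 it was 0.005, -0.145 and -0.47. In M22, 19 of 23 members fell and 0 rose, against 29.9% and 32.9% of all genes. The lowest were RPA135 at -2.92 ± 0.43, RPA34 at -2.72 ± 0.68 and RPA49 at -2.53 ± 0.43, and the highest were RPB4 at 0.20 ± 0.58, RPO21 at 0.01 ± 0.65 and RPB7 at -0.01 ± 0.29. In YPS163, 18 of 23 fell and 0 rose, against 30.2% and 30.5%. RPA135 at -2.60 ± 0.22, RPA49 at -2.43 ± 0.44 and RPC19 at -2.37 ± 0.86 were the lowest, and RPB4 at 0.09 ± 0.68, RPO21 at 0.06 ± 0.60 and RPB7 at -0.10 ± 0.05 the highest. In both strains the 5 polymerase I, the 7 polymerase III and the 5 shared subunits tested all fell. The polymerase II subunits that fell were RPB3 at -0.58 ± 0.35 and RPB9 at -0.56 ± 0.19 in M22, and RPB11, the partner of RPB3, at -0.67 ± 0.39 in YPS163. In YPS163, RPB3 passed as well once the array number entered as a block (adjusted p = 0.0326) or array 1 was left out (adjusted p = 0.0234). The call of RPA14 in M22 was lost without array 1 (adjusted p = 0.118) and that of RPB5 in YPS163 without array 3 (adjusted p = 0.153). RPB9 in M22 lost its call without array 2 (adjusted p = 0.0694) or array 3 (adjusted p = 0.0751), and RPB11 in YPS163 without array 3 (adjusted p = 0.0688).

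YPS163 MATa and hap1D add the members that the other strains lack. In YPS163 MATa, 21 of 28 tested members fell and 0 rose, against 27.8% and 24.8% of all genes. Its lowest members with both arrays were RPA135 at -2.47 ± 0.38, RPA34 at -2.38 ± 0.21 and RPC19 at -2.37 ± 0.21, and RPA43 lay at -2.86 on its only array. RPC37 and RPO26 also had 1 array there, at -1.37 and -1.28, and RPB5 did not pass at -0.80 ± 0.19 (adjusted p = 0.0559). The highest were RPO31 at 0.14 ± 0.28, RPB4 at 0.07 ± 0.06 and RPB7 at -0.07 ± 0.02. In hap1D all 31 members were tested, 26 fell and 0 rose, against 28.4% and 27.3% of all genes. There RPA135 at -2.13 ± 0.24, RPA34 at -2.06 ± 0.12 and RPC19 at -1.97 ± 0.44 were the lowest, and RPO31 at 0.31 ± 0.23, RPB4 at 0.21 ± 0.10 and RPB7 at 0.00 ± 0.03 the highest. RPB8 and RPB10, small subunits common to all enzymes, fell in both strains, to -1.20 ± 0.04 and -1.15 ± 0.24 in YPS163 MATa and to -1.02 ± 0.06 and -0.84 ± 0.13 in hap1D. The polymerase II subunits that fell were RPB3 and RPB11 in YPS163 MATa, at -0.46 ± 0.13 and -0.97 ± 0.03, and RPB3, RPB11 and RPB2 in hap1D, at -0.59 ± 0.10, -0.55 ± 0.23 and -0.25 ± 0.13. Calls lost on leaving out a single array were those of RPB3, RPC53 and RPC11 in YPS163 MATa (highest adjusted p of 0.251, 0.123 and 0.0884) and of RPB2, RPB11 and RPC53 in hap1D (highest adjusted p of 0.209, 0.108 and 0.0577). With array 3 of YPS163 MATa kept and moved by 1 position, RPC53, RPC19 and RPB8 no longer passed there (adjusted p of 0.647, 0.158 and 0.125).

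RPO31, the largest subunit of polymerase III, stood apart from its enzyme. Its values were -0.06 and 0.33 in YPS163 MATa, 0.10, 0.56 and 0.27 in hap1D, and 0.32, 0.31 and 0.55 in msn2D. The other 9 polymerase III subunits, where tested, fell in these strains. RPO31 passed in msn2D, as a rise to 0.39 ± 0.14 (adjusted p = 0.0323) that no longer passed when any 1 of its arrays was left out (adjusted p from 0.0723 to 0.173). RET1, the second largest subunit, by contrast lay at -1.71 and -0.99 in YPS163 MATa, at -1.53, -1.08 and -1.15 in hap1D and at -0.78, -1.21 and -0.98 in msn2D, and the arrays of the pair did not overlap. In YPS163 itself, RPO31 read -1.39 and RET1 -1.51 at 60 min, on the 1 ethanol array of DBY8268, M22 and YPS163 that held 316 values in the chromosome XV run. RPO31 also read -0.52 at 45 min, on an array with 7 values in the run. On 7 such sparse ethanol arrays with enough values, those in the run correlated with the hap1D mean at -0.212 to 0.523, against 0.701 to 0.83 elsewhere. Neither reading has a replicate.

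Subunits at the same position of the enzymes can be set side by side in hap1D, where all have 3 arrays. The largest subunits averaged -1.70 ± 0.33 for RPA190, -0.02 ± 0.10 for RPO21 and 0.31 ± 0.23 for RPO31. The second largest averaged -2.13 ± 0.24 for RPA135, -0.25 ± 0.13 for RPB2 and -1.25 ± 0.24 for RET1. At the stalk, RPA43 averaged -1.89 ± 0.68, RPB7 0.00 ± 0.03 and RPC25 -1.18 ± 0.56, and RPA14 averaged -1.08 ± 0.22, RPB4 0.21 ± 0.10 and RPC17 -1.04 ± 0.25. The zinc-ribbon subunits averaged -1.41 ± 0.34 for RPA12, -0.26 ± 0.10 for RPB9 and -0.83 ± 0.19 for RPC11. In the assembly platform, RPC40 averaged -1.53 ± 0.20 against -0.59 ± 0.10 for RPB3, and RPC19 -1.97 ± 0.44 against -0.55 ± 0.23 for RPB11. At each of these positions the hap1D arrays of the polymerase I subunit all lay below those of its polymerase II counterpart. The polymerase I and III arrays overlapped for both stalk positions and did not for the 2 large subunits. At the zinc ribbon they lay just apart, with RPA12 at -1.08 at its highest and RPC11 at -1.04 at its lowest.

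**Figure D2:**
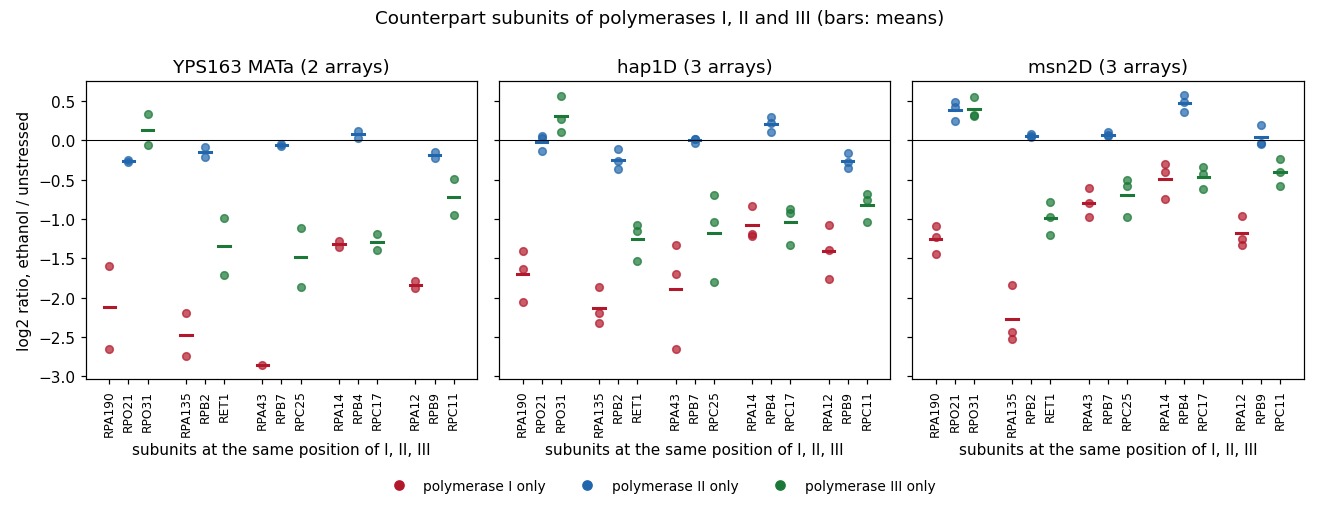
Log2 ratios of ethanol over unstressed cells for subunits at the same position of polymerases I, II and III, in the strains where all were measured. Dots are arrays and bars are means. RPO31 sits with the polymerase II subunits in each panel, at means of 0.14, 0.31 and 0.39, while no array of RET1 lies above -0.78.

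Polymerase I and III subunits lay below 0 from the earliest time measured. On the time-course arrays, the median of the 5 polymerase I subunits with values in DBY8268, M22 and YPS163 was -1.67, -1.72 and -2.23 at 15 min and -2.59, -1.97 and -2.28 at 60 min, in that order of strains. For 7 polymerase III subunits it was -0.83, -1.27 and -1.37 at 15 min and -1.66, -1.36 and -1.32 at 60 min. The polymerase II median stayed between -0.39 and 0.01 on these arrays. Each time other than 30 min has 1 array per strain, so the differences have no replicate check and were not tested. They are set here against the range of the 3 arrays at 30 min. How many of all genes lay outside that range was not counted, so the members named below have no background share.

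RPA135 was early but incomplete at 15 min. In DBY8268 it read -1.17 at 15 min, -2.66 on the 30 min array of the same course, -2.70 at 45 min and -2.84 at 60 min. In M22 the 15 min value was -1.37 and in YPS163 -2.08, again above all 3 arrays at 30 min. Unlike in DBY8268, the 60 min value was above that at 45 min, at -2.31 against -2.71 in M22 and -2.40 against -2.96 in YPS163. RPC34, RPC31 and RPC40 also had 15 min values above every 30 min array in all 3 strains, the 4 genes of 23 with values at all times to do so. The gap was small for RPC31 in YPS163, at -0.96 against -1.07 on the nearest 30 min array. RPC40 read -0.95, -0.83 and -0.82 at 15 min in DBY8268, M22 and YPS163, against -2.16 to -1.42 at 30 min.

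RPC53 and RPO21 ran the other way, with the 15 min value below every 30 min array in all 3 strains. RPC53 read -1.35, -1.71 and -2.0 at 15 min in DBY8268, M22 and YPS163, and -1.02, -0.86 and -1.51 at 60 min. RPO21 read -0.87, -0.64 and -1.05 at 15 min and 0.07, -0.24 and -0.01 at 60 min. The 30 min arrays of RPO21 spread from -0.74 to 0.76, as widely as the change over time. RPC82 and RPC37 at 60 min lay above every 30 min array in all 3 strains, with RPC82 at -1.66, -0.88 and -1.30. RPC37 read -1.32, -1.03 and -1.25, close to its highest 30 min arrays at -1.43, -1.20 and -1.30.

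**Figure D3:**
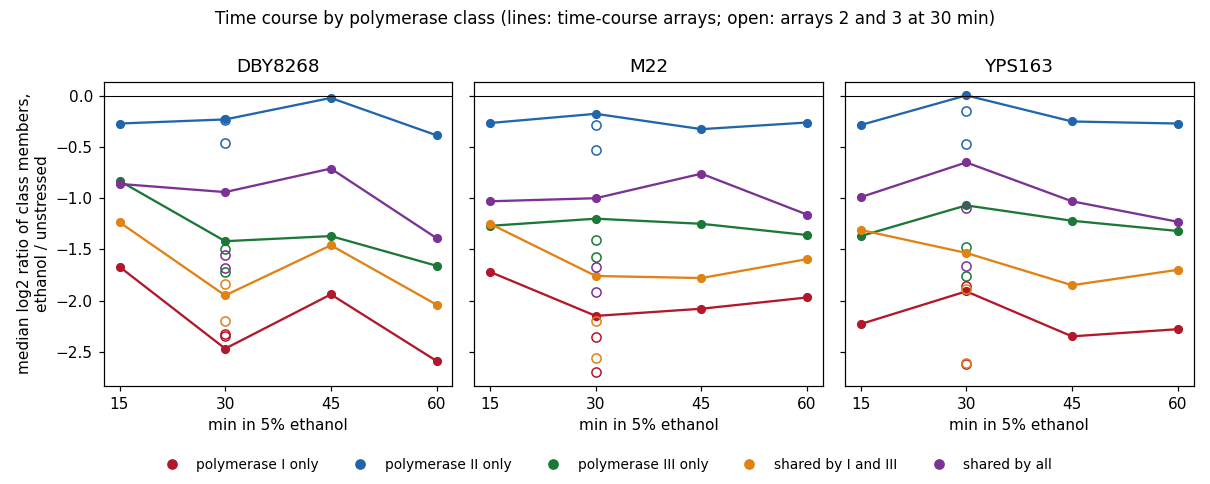
Median log2 ratio of ethanol over unstressed cells for each class of subunits against min in ethanol, in 3 strains, over the 23 members with values at every time. Filled dots joined by lines are the time-course arrays and open dots are arrays 2 and 3 at 30 min. Polymerase I lies below polymerase III and polymerase II nearest to 0 at each time. In DBY8268 the polymerase I medians of the 30 min arrays lie between -2.47 and -2.33, against -1.67 at 15 min, while in YPS163 they spread from -2.62 to -1.86, around the 15 min value of -2.23.

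Part of the spread at 30 min followed the array number. Arrays 1 and 3 carry the dyes the same way round. Array 1 is listed among the time-course arrays of its strain and is read here as part of that course. In all of DBY8268, M22 and YPS163, array 3 was lower than array 1 for 13 of 23 members (56.5%), against 28.3% of 4765 genes, and higher for 2 (8.7%), against 30.2%. The largest downward steps from array 1 to array 3 were those of RPB5, at -1.07, -1.33 and -1.88, and RPC19, at -0.64, -1.34 and -1.67. RPO21, at 0.74, 1.17 and 1.19, and RPA14, at 1.49, 1.89 and 0.70, stepped upward in all 3 strains. Its part in the strain means above was not tested beyond the fit with the array number as a block.

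The ethanol responses of DBY8268, M22 and YPS163 were then compared with each other. No member of 23 passed for M22 minus DBY8268, YPS163 minus DBY8268 or YPS163 minus M22 in limma with Benjamini-Hochberg adjustment, where 12.9%, 16.5% and 6.13% of all genes did. At an unadjusted p under 0.05 there were 1, 0 and 1 members, and with the array number as a block again 0 passed in each. The single members were RPC37, whose response was 0.32 ± 0.15 (SE) weaker in M22 than in DBY8268, and RPA34, 0.72 ± 0.30 (SE) weaker in YPS163 than in M22. The difference for RPA34 passed without M22 array 1, at 1.08 with an adjusted p of 0.0325, or without YPS163 array 3, at 1.06 with an adjusted p of 0.0460. These comparisons leave room for differences. Over the members, the 95% intervals reached from -1.12 to 1.17 for M22 minus DBY8268, from -1.08 to 1.10 for YPS163 minus DBY8268 and from -1.22 to 1.35 for YPS163 minus M22. RPA135 had -0.45, with a 95% interval from -0.94 to 0.04, for M22 minus DBY8268. The pairs share arrays, so the comparisons are not independent.

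In msn2D the ratios lay nearer to 0, though few single subunits passed the test of the difference from YPS163 MATa. Within msn2D, 21 of 30 tested members fell and RPO31 rose, against 23.1% of all genes falling and 22.1% rising. The medians were -1.25 for polymerase I, -0.71 for polymerase III, -1.26 for the pair shared by I and III, -0.74 for 4 subunits shared by all and 0.06 for polymerase II, of which 0 of 7 passed in limma, with 0 at an unadjusted p under 0.05. RPB4 (adjusted p = 0.0172) and RPO21 (adjusted p = 0.0313) passed as higher once the arrays were scaled to the same spread, and on the arrays of msn2D alone (adjusted p of 0.0102 and 0.0216). In YPS163 MATa, over the members tested there, they were -2.11, -1.35, -1.94, -1.16 and -0.19. RPB5, tested only in YPS163 MATa of these strains, lay at -0.34 on its single msn2D array. The lowest members in msn2D were RPA135 at -2.27 ± 0.38, RPA34 at -1.59 ± 0.26 (n = 2) and RPA49 at -1.39 ± 0.42, and the highest RPB4 at 0.48 ± 0.11, RPO31 and RPO21 at 0.38 ± 0.12. RPA14 did not pass there, at -0.49 ± 0.23 (adjusted p = 0.175), but did on scaled arrays (adjusted p = 0.0425) and on the arrays of msn2D alone (adjusted p = 0.0221). Calls lost on leaving out a single array were those of RPA43, RPC25, RPC17, RPC11, RPB10 and RPO31 (highest adjusted p without 1 array of 0.0752, 0.0916, 0.0820, 0.137, 0.0602 and 0.173).

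The difference between msn2D and YPS163 MATa was positive for 27 of 27 members tested, with a median of 0.56, against 55% of all genes and a median of 0.06. Only RPC17 and RPC31 passed, both higher in msn2D, where 8.95% of all genes passed and 4.5% passed as higher. RPC17 gave -1.39 and -1.19 in YPS163 MATa and -0.34, -0.62 and -0.43 in msn2D, a difference of 0.83 ± 0.21 (SE, adjusted p = 0.0210). RPC31 gave -1.76 and -1.45 against -0.58, -0.90 and -0.99, a difference of 0.78 ± 0.20 (SE, adjusted p = 0.0210). For both genes the arrays of the 2 strains did not overlap, which restates the values behind the calls. Both calls were lost without YPS163 MATa array 1 (adjusted p of 0.264 and 0.323) or msn2D array 1 (adjusted p of 0.0682 and 0.0865), and that of RPC17 also without msn2D array 3 (adjusted p = 0.0582). The largest difference was that of RPC19, at 1.21 with a 95% interval from 0.38 to 2.03, which did not pass (adjusted p = 0.0620) but did on the arrays of the comparison alone (adjusted p = 0.0155) and with YPS163 MATa array 3 as deposited (adjusted p = 0.0375). RPA190 at 0.87 (from 0.21 to 1.53) did not pass either, and passed without YPS163 MATa array 2 (adjusted p = 0.0164). RPA135, the lowest member tested in both strains, differed by 0.20, with an interval from -0.35 to 0.75.

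The msn2D arrays had a narrower spread over all genes. Their median absolute log2 ratio was 0.39 to 0.45, against 0.53 to 0.59 for YPS163 MATa. With the ethanol arrays scaled to the same spread, the difference stayed positive for 24 of 27 members and its median fell to 0.28, while RPC31 lost its call (adjusted p = 0.0926) and RPB11 gained one, at 0.87 (adjusted p = 0.0445). RPB11 also passed on centred arrays (adjusted p = 0.0487) and among genes valued on all arrays (adjusted p = 0.0421). Ribosome assembly genes, chosen by the names NOP, NOC and UTP, also lay higher in msn2D. Of these 33 of 34 had a positive difference with a median of 0.70, 8 passed as higher, and after scaling 23 were positive, with a median of 0.23 and 3 calls. For cytosolic ribosomal protein genes the median difference was -0.06 as deposited and -0.44 after scaling, with 0 of 125 passing in limma, 0 at an unadjusted p under 0.05 and 0 with the array number as a block.

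**Figure D4:**
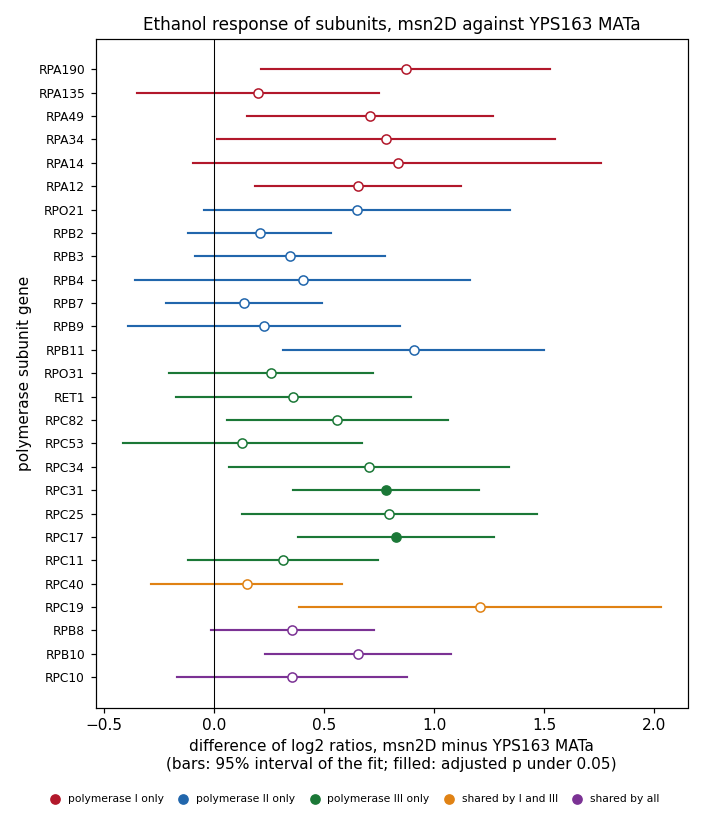
Difference of the ethanol log2 ratios, msn2D minus YPS163 MATa, for the 27 subunit genes tested, with the 95% interval of the fit as bars. Filled dots passed at an adjusted p under 0.05. All 27 dots lie to the right of 0, and those of RPC31 and RPC17 alone are filled.

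The remaining pairs of responses showed no called difference in the subunits. For hap1D minus YPS163 MATa 0 of 28 members passed in limma, 0 had an unadjusted p under 0.05 and 0 passed with the array number as a block, where 0.0967% of all genes passed. The median difference was 0.22, and the 95% intervals reached from -1.09 to 1.22. For YPS163 MATa minus YPS163 0 of 21 passed, again with 0 at an unadjusted p under 0.05 and 0 with the block, where 0.761% of all genes passed, and the intervals reached from -1.08 to 1.09. The comparisons of msn2D and hap1D use the same 2 YPS163 MATa arrays.

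Without ethanol, the strains differed in a few subunits. In M22 against DBY8268, 5 of 23 members differed, against 30.2% of all genes. RPC10 was the largest, with 0.56, 0.82 and 1.01 on the arrays, a mean of 0.80 ± 0.23 (adjusted p = 0.000629). RPC17 at 0.45 ± 0.08 and RPC53 at 0.45 ± 0.23 were also higher in M22, and RPO21 at -0.70 ± 0.18 and RPB11 at -0.53 ± 0.43 lower. The call of RPC10 was made in every alternative tried, while leaving out any 1 array left 2 calls, and those of RPO21, RPB11, RPC53 and RPC17 were each lost at least once (highest adjusted p of 0.113, 0.303, 0.271 and 0.0887). Fitting these 3 arrays alone gave 8 calls, with RPA135, RPA49, RPA34 and RPA12 higher in M22 added and RPB11 lost. Of the 5 polymerase I subunits tested all had means above 0, with a median of 0.37, against -0.40 for 6 of polymerase II and -0.03 for all genes. Without array 1 the polymerase II median was -0.06, so its distance from 0 rests on that array.

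In YPS163 against DBY8268, 4 of 23 members differed, all higher in YPS163, against 23.9% of all genes in either direction and 9.04% higher. RPA49 gave 0.78, 0.19 and 0.78, a mean of 0.58 ± 0.34 (adjusted p = 0.0156), and RPA12 0.37, 0.50 and 0.68, a mean of 0.52 ± 0.16 (adjusted p = 0.0114). RPO26 averaged 0.48 ± 0.19 and RPC10 0.48 ± 0.30. All 4 calls were lost when these 3 arrays were fitted alone (adjusted p from 0.141 to 0.218), and without array 3 (adjusted p from 0.0984 to 0.227). RPA49 also lost its call without array 1 (adjusted p = 0.145), RPC10 without array 2 (adjusted p = 0.128) and RPO26 without either (adjusted p of 0.0843 and 0.0645). In hap1D against YPS163 MATa, 0 of 31 members passed in limma, 1 had an unadjusted p under 0.05, and 0 passed with the array number as a block, where 3.15% of all genes passed. The 1 member was RPC11, with 0.27, 0.32 and 0.32 (adjusted p = 0.401).

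Genes that work with the polymerases were also measured in DBY8268, where 31.8% of all genes fell and 29.1% rose. Of the polymerase I factors, 8 were tested, 4 fell and 1 rose. The lowest was RRN11, a core factor subunit, at -1.71 ± 0.28 (adjusted p = 1.81e-06), and the highest RRN5, of the upstream activating factor, at 0.47 ± 0.06 (adjusted p = 0.0164). Of 8 polymerase III factors 1 fell and 2 rose, with BRF1, a subunit of the initiation factor TFIIIB, lowest at -0.65 ± 0.34 and TFC3, a subunit of TFIIIC, highest at 0.38 ± 0.08, which did not pass. Of 17 polymerase II general factors 2 fell and 2 rose, from -0.62 ± 0.39 for RAD3 to 0.60 ± 0.46 for CCL1, both of TFIIH. The lists for polymerases II and III thus had smaller shares of calls than all genes. SPT15, the TATA-binding protein used by all the enzymes, fell to -0.83 ± 0.11. Of 7 factors for assembly and nuclear import of the polymerases, 5 fell and 2 rose. BUD27, which helps assemble the enzymes, was the lowest at -2.24 ± 0.13, and IWR1, which directs polymerase II to the nucleus, the highest at 0.92 ± 0.48. The median was -0.49 for the polymerase I factors, 0.03 for the polymerase III factors, 0.10 for the polymerase II factors and -1.13 for the assembly factors.

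Some of these genes differed between responses, and those named here are all that were called. Between DBY8268, M22 and YPS163, 8 polymerase I factors, 8 polymerase III factors, 17 general factors and 7 assembly factors were tested. Of all genes 12.9% passed for M22 minus DBY8268, 16.5% for YPS163 minus DBY8268, 6.13% for YPS163 minus M22 and 8.95% for msn2D minus YPS163 MATa. Single calls of these genes were not followed through the alternative settings. In the ethanol response of M22 against DBY8268, BUD27 was 0.94 ± 0.23 (SE) higher and SSL2, a TFIIH helicase, differed by -0.52 ± 0.16 (SE), with adjusted p of 0.00915 and 0.0346. In YPS163 against DBY8268, RRN5 and RTR1, a phosphatase of the polymerase II tail, both differed by -0.71 (adjusted p of 0.0376 and 0.0288). RTP1, an import factor, differed by -1.32 ± 0.36 (SE) between YPS163 and M22 (adjusted p = 0.0301). In msn2D against YPS163 MATa, GPN2, an assembly factor, was higher by 1.15 ± 0.18 (SE, adjusted p = 0.00371), with means of -0.56 ± 0.12 and -1.71 ± 0.23. TOA1, a TFIIA subunit, was higher by 0.70 (adjusted p = 0.0472), and SSL2 differed by -0.62 (adjusted p = 0.0330).

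Genes for ribosomal proteins and for ribosome assembly can be set beside the subunits. In DBY8268, 122 of 122 ribosomal protein genes and 34 of 34 ribosome assembly genes passed as lower, with medians of -1.81 and -2.18, beside -2.27 for the polymerase I and -1.56 for the polymerase III subunits. In msn2D the medians were -1.23 for ribosomal proteins, -1.32 for ribosome assembly, -1.25 for polymerase I and -0.71 for polymerase III. In hap1D they were -1.16, -1.73, -1.89 and -1.19. These medians are descriptions, and their differences were not tested.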

How the data were processed

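Per the labels' protocols, RNA was extracted with hot phenol and labelled indirectly, with array 2 of each group dye-exchanged. The authors deposited a log ratio for each gene of each array, and its log2 base was inferred from the range of the values. Their normalisation and filters were not stated in the sources read. The hap1D log-phase ratios were turned on the sign of HAP1. Genes were named from RefSeq (R64) locus tags. limma 3.58.1 (R 4.3.3) fitted 1 mean per group to 26 arrays, with spread shared by all groups, and an adjusted p (Benjamini-Hochberg, over annotated genes with at least 2 values per group) under 0.05 was a call. The least squares step, which allows for missing values, was tested on simulated data. Same-numbered arrays of DBY8268, M22 and YPS163 deviated together (r from 0.22 to 0.648), so their block values are given where they change a call. Alternatives were the block, a dye term, centring, scaling, fewer arrays or genes, and array 3 of YPS163 MATa as deposited or moved.

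The members and lists were chosen with earlier results of these data known. All members are named in DBY8268 at 30 min, with the lowest and highest 3 in each other group, every member called in a comparison, counterparts at a shared position, and, of the other lists, the extremes in DBY8268 and up to 3 genes called in a difference.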

Additional observations from a re-analysis of the deposited data

Results flagged for a closer look

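RPC31 and RPC17 were the members whose ethanol responses differed between strains by the test of the difference itself. They were 2 of 27 members tested for msn2D minus YPS163 MATa, where 8.95% of all genes passed. Both calls were lost without msn2D array 1 (limma, adjusted p of 0.0865 and 0.0682) and at an adjusted p under 0.01. RPC31, msn2D minus YPS163 MATa, differed by 0.78 on the log2 scale and RPC17 by 0.83 (limma, adjusted p = 0.0210 for each), higher in 3 of 3 msn2D arrays than in both YPS163 MATa arrays. That order of the arrays comes from the values that gave the calls and is no separate support. The msn2D arrays also have the narrower spread over all genes, and on arrays scaled to the same spread RPC31 did not pass (adjusted p = 0.0926). Its part in the difference was not tested further.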

How the results depend on the processing

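No value that passed turned its direction under the alternatives run. Of 5408 values of members under them, 5270 kept their side of the threshold, 102 lost a call and 36 gained one. With only genes valued on all arrays, fewer members are tested, and the calls were 13 in YPS163 MATa, 13 in hap1D and 10 in msn2D. For M22 against DBY8268 in log phase there were 8 calls on scaled arrays, 8 on the arrays of the comparison alone, 3 with YPS163 MATa array 3 as deposited, 1 at an adjusted p under 0.01, and 2 (lowest) to 2 (highest) without any 1 array. For YPS163 against DBY8268 these were 0 on its own arrays, 0 with array 3 as deposited, 0 at the stricter threshold and 0 to 2 without 1 array. YPS163 minus M22 had 0 to 1 calls without 1 array. For msn2D minus YPS163 MATa there were 4 with array 3 moved, 0 at the stricter threshold and 0 to 4 without 1 array. An array left alone in its group was assumed to vary like the other groups. The cause of these changes was not tested.

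With the replicate block over all arrays, msn2D minus YPS163 MATa had 4 calls, RPB11 (adjusted p = 0.0380) and RPC19 (adjusted p = 0.0410) added. RPB5 in YPS163 MATa passed (adjusted p = 0.0387), and RPB2 in hap1D did not (adjusted p = 0.0663). By array number, YPS163 MATa deviated together with hap1D (r of 0.689) and not with YPS163 (-0.207) or msn2D (-0.211). With 2 YPS163 MATa arrays the deviations mirror each other, so each pair gives 1 such value. Whether these arrays were paired was not tested. Outside these and the block results given for DBY8268 and YPS163, the block changed no call of a member.

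On scaled arrays the polymerase I median was -2.088 in DBY8268, -2.159 in M22 and -1.648 in msn2D, the polymerase III median -1.289 in M22 and -0.942 in msn2D, that of the pair shared by I and III -1.648 in msn2D and that of subunits shared by all -0.972 in msn2D. Centred arrays gave 0.16 for polymerase III in YPS163 log phase. Without 1 array, the median ranged from -2.38 to -2.235 for polymerase I in DBY8268, from -1.645 to -1.33 for polymerase III in M22 and from -1.99 to -1.52 for polymerase I in hap1D. In log phase the ranges were -0.475 to -0.062 for polymerase II and 0.16 to 0.275 for polymerase III in M22, 0.09 to 0.155 for polymerase III in YPS163, and -0.045 to -0.03 for polymerase I and -0.08 to 0.007 for polymerase III in hap1D.

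Counts over all genes moved too. Their lowest values took them from 676 to 182 for M22 minus DBY8268, 848 to 297 for YPS163 minus DBY8268, 313 to 93 for YPS163 minus M22 and 462 to 87 for msn2D minus YPS163 MATa. For YPS163 MATa minus YPS163 36 calls became 1 to 73, and for hap1D minus YPS163 MATa 5 became 0 to 18. In log phase they went from 1514 to 957 for M22, 1254 to 199 for YPS163 and 179 to 73 for hap1D. In ethanol, with genes valued on all arrays, 3262 became 1968 in DBY8268, 3306 became 1989 in M22, 3133 became 1919 in YPS163, 2737 became 1670 in YPS163 MATa, 3175 became 1817 in hap1D and 2589 became 1566 in msn2D. Emptying the sparse chromosome XV run moved no member's call. That setting and the fits of DBY8268, M22 and YPS163 alone were chosen after seeing the data. Promoter motif counts were not run.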
